A study of Mus musculus with 6 samples.

Results

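The Kruppel-like factors are described here through 10 chosen members, Klf2, Klf3, Klf4, Klf5, Klf6, Klf7, Klf9, Klf10, Klf11 and Klf13, of 57010 genes counted. They were read in CT26 cells, a mouse colon carcinoma line, that carried a control guide (sgControl) or a guide against Cdk10 (sgCdk10), with 3 RNA-seq libraries per group. All 10 were found by symbol, and all 10 passed the filter on low counts. Klf16 also passed it but is not among the 10, so the order, summed level and shares of the members leave it out. The family was picked because Klf4 and Klf6 were lower in sgCdk10 while other immediate early genes were higher. The differences between the groups are therefore given for the members as a description and carry no test. No agent, dose or time is given in the labels for either group, and whether the guide cells are a pool or 1 clone is not given in the sources used here. The labels do not tell whether replicate libraries are separate cultures, so any p-value measures only the spread between these libraries.

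Kruppel-like factors are transcription factors that bind GC-rich and CACCC-type DNA through zinc fingers at their carboxyl end, as do the related SP factors. KLF4 and KLF5 are known for opposite roles in the gut epithelium, with KLF4 in differentiated cells and KLF5 in dividing crypt cells. Members are usually divided into activators that recruit acetyltransferases (KLF2, KLF4, KLF5, KLF6 and KLF7 here), repressors that bind CtBP (KLF3) and repressors that bind SIN3A (KLF9, KLF10, KLF11 and KLF13). KLF2, KLF4, KLF6 and KLF10 are also known as genes that respond quickly to serum or growth factors.

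Promoter sequences are shown for Klf4, Klf6 and Klf11, the 3 members with the lowest ratios between the groups, and for Klf2, the only one of the 8 members in the promoter table with a match to the MEF2 motif. They are from RefSeq on GRCm38.p6 and run 5′ to 3′ on the strand of the gene, up to the RefSeq start or, where the GENCODE gene begins before it, up to that point. Positions of matches are counted from the RefSeq start. Capitals mark the GC box GGGCGG, the CACCC box CACCC, the E box CACGTG and the MEF2 motif, on either strand. The Klf4 stretch is chr4:55532476-55532725 on the minus strand. The Klf6, Klf11 and Klf2 stretches, all on the plus strand, are chr13:5861239-5861481, chr12:24651121-24651273 and chr8:72318812-72319032.
Klf4: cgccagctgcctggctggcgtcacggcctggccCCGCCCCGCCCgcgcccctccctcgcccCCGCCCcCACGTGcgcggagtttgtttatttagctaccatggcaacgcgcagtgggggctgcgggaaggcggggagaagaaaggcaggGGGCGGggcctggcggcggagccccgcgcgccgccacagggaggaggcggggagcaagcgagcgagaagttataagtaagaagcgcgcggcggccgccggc
Klf6: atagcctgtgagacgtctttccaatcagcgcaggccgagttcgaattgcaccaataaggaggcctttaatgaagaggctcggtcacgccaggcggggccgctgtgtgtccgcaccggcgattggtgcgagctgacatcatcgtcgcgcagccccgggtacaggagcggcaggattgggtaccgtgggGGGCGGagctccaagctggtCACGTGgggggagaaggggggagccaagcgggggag
Klf11: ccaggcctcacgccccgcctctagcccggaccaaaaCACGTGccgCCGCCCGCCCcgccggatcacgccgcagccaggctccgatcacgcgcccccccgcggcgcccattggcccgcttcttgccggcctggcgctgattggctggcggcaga
Klf2: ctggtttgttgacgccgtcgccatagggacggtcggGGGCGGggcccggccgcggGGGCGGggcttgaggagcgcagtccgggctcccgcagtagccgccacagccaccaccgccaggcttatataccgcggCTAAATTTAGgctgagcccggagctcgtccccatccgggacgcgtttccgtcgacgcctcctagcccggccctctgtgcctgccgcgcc

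These stretches were rich in G and C. Over the 250 bases before the RefSeq start, the 8 members in the table (Klf2, Klf3, Klf4, Klf6, Klf7, Klf9, Klf11 and Klf13) held 59.2 to 78.4% G and C, against a median of 52.4% over 32851 promoters. A GC box, the kind of site that KLF and SP proteins bind, was found in 7 of the 8 windows and in 32.7% of all windows. Klf3 had 6 matches, Klf4 and Klf11 4 each, and Klf9 none. A CACCC box stood in 5 of 8 windows and in 52.0% of all, with no match in Klf4, Klf6 or Klf11. The E box CACGTG was found in Klf4, Klf6 and Klf11 and in none of the other 5, against 6.02% of all windows. It began 182, 43 and 214 bases before the start in these 3 genes. Klf3 and Klf9, which were also lower in sgCdk10, had none. Several motifs were searched, and the windows of all promoters were not matched to the members in GC content. Whether the E box goes with the differences between the groups was not tested. The MEF2 motif was found in Klf2, as CTAAATTTAG 118 bases before the start, and in 0.508% of all windows. A CArG box, the binding site of SRF, was in none of the 8 windows and in 1.47% of all. The cyclic AMP response element TGACGTCA (1.55% of all) and the ETS motif CCGGAAG (6.91%) were in none of the 8 either. The AP-1 motif was searched in the loose form TGANTCA, with any base at N. It was in Klf9, as TGAATCA, and in 6.75% of all. The CCAAT box CCAAT was in 4 of 8 (Klf6, Klf9, Klf11 and Klf13) and 33.9% of all, and TATAAA in none of the 8 and 12.4% of all. Both strands were searched, and matches of GC and CACCC boxes may share bases. A match describes these letters alone.

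Totals lay between 17532202 and 19258309 counts per library, so that 3 counts corresponded to 0.156 to 0.171 CPM, the count scaled to a common library total. Cdk10, the targeted gene, was read 381, 344 and 365 times in the sgControl libraries and 204, 227 and 202 times in the sgCdk10 libraries, and fell by 0.82 on the log2 scale (SE 0.08, with an adjusted p = 8.4e-09 by edgeR). The library sgControl replicate 3 stood apart from the other 2 of its group, since its counts differed from theirs by 4.08 and 4.14 in chi-square divided by degrees of freedom, where other pairs of replicates gave 1.53 to 1.61. The quasi-likelihood test of edgeR called 42.5% of 13442 genes at an adjusted p under 0.05, 22.1% higher and 20.4% lower in sgCdk10. The labelled cell type was set against markers. Of 11 genes of colon epithelium Epcam was at 0 in every library and Cdh1 had at most 1 count, while 3 were tested. The keratins Krt18 and Krt20 were higher in sgCdk10, at log2 fold changes of 0.65 and 0.51, and the mucin Muc2, with 7 to 16 counts, was lower at -0.93 but not called in 6 of 12 alternatives. The summed epithelial level ran from 37.0 to 40.8 CPM in sgControl and from 58.1 to 59.4 in sgCdk10, most of it Krt18 and Krt20. Of 14 leukocyte markers 12 had at most 3 counts in any library (Ptprc at most 2), and 6 of 8 endothelial markers had at most 3 (Pecam1 at most 2). Summed over the list, leukocyte markers had 9.20 to 9.33 CPM in sgControl and at least 12.9 in sgCdk10, most of it Cd68. Endothelial markers ran from 7.86 to 8.47 and from 10.9 to 11.9 CPM, most of it Flt1, and the fibroblast list from 1368 to 1519 and from 1569 to 1591, most of it Col1a2. In the fibroblast list Lum and Thy1 were at 0 in every library, and Dcn had at most 7 counts. Of 5 fibroblast markers tested 3 were called higher (Pdgfra at 0.63, Col1a1 at 0.27 and Col1a2 at 0.10) and Col3a1 lower, at -0.41, though not by DESeq2. With GC content and length corrected for, Col1a1 was at 0.15 and Col1a2 at 0.02. Col1a2 was not called in 5 of 14 alternatives, and was at 0.04 without sgControl replicate 3. The part of these in the results was not tested.

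Klf4 and Klf6 had the 2 highest levels per kb of merged exons among the members, and both were lower in sgCdk10. By longest transcript Klf6 was at rank 3, behind Klf3. Klf4 (ENSMUSG00000003032, chromosome 4, from 55527143 to 55532466 on the minus strand of GRCm38, 5 merged exons) encodes a factor known for cell cycle arrest and differentiation of epithelium. It had 122, 119 and 109 CPM in the sgControl libraries and 91.0, 90.1 and 86.3 in the sgCdk10 libraries. The groups did not overlap, and sgControl replicate 3 was the lowest of its group. The means were 117 ± 6.61 and 89.1 ± 2.51 CPM (SD, n = 3). Their ratio was 0.763, with -0.39 (SE 0.04) as the log2 fold change. Counting error alone would give an SD of 2.56 CPM in sgControl and 2.21 in sgCdk10. Less RNA per cell and fewer cells that express a gene cannot be told apart in bulk libraries.

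Klf6 (ENSMUSG00000000078, chromosome 13, from 5861482 to 5870394 on the plus strand, 5 merged exons) encodes a factor known as a tumour suppressor and as an early responder to injury. Its level was 130, 122 and 129 CPM in sgControl and 111, 110 and 112 in sgCdk10. Every sgCdk10 library lay below every sgControl library. The log2 fold change was -0.20 (SE 0.03), a ratio of 0.871, nearer to 1 than that of Klf4.

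The other activators had smaller differences or overlapping groups. Summed over the 7 activator genes of the family, Klf1 and Klf17 included, 384 to 394 CPM in sgControl stood beside 339 to 343 in sgCdk10. This sum holds Klf4 and Klf6, for which the family was picked, so it is a description. Klf5 (ENSMUSG00000005148, chromosome 14, from 99298691 to 99315036, plus strand), the factor of dividing crypt cells, had 62.6, 61.4 and 61.4 CPM in sgControl and 57.1, 55.4 and 60.3 in sgCdk10. The groups did not overlap, but sgCdk10 replicate 3 came close to the sgControl libraries, at a log2 fold change of -0.10 (SE 0.04). Klf7 (ENSMUSG00000025959, chromosome 1, from 64029447 to 64122282, minus strand), a regulator of neuron development, had 75.5, 77.1 and 86.2 CPM in sgControl and 81.1, 79.7 and 79.9 in sgCdk10. All 3 sgCdk10 libraries lay inside the range of sgControl, at a log2 fold change of 0.01 (SE 0.04). Its log2 fold change ran from -0.03 to 0.07 with 1 library left out, and was -0.04 when GC content and length were corrected for. Exons of Klf7 overlap those of Gm13748, which had at most 1 count, and of Gm26649, both on the opposite strand.

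Klf2 (ENSMUSG00000055148, chromosome 8, from 72319033 to 72321656, plus strand), known from quiescent T cells and endothelium, had the fewest reads of the members. The sgControl libraries held 69, 62 and 51 of its counts and the sgCdk10 libraries 64, 70 and 98, or 3.41 ± 0.548 and 4.21 ± 0.801 CPM (SD, n = 3). The groups overlapped, and sgCdk10 replicate 3 was the highest library. Counting error alone would give an SD of 0.436 CPM in sgControl and 0.478 in sgCdk10. The log2 fold change of 0.31 (SE 0.17) was 0.14 without sgCdk10 replicate 3 and 0.19 without sgControl replicate 3, so at this depth the difference was within the spread of the libraries.

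Klf3 (ENSMUSG00000029178, chromosome 5, from 64803388 to 64832901, plus strand, 8 merged exons), the CtBP-binding repressor of the set, had the most reads. Its level was 162, 160 and 168 CPM in sgControl and 150, 149 and 147 in sgCdk10. The groups did not overlap, and the log2 fold change was -0.14 (SE 0.03). Its exons overlap those of Gm20033 on the opposite strand, which had 8 to 20 counts per library against 2623 to 3043 for Klf3.

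The SIN3A-binding repressors differed in both directions, with Klf10 higher and Klf11 lower in sgCdk10. Summed over the 6 SIN3A genes of the family, Klf14 and Klf16 included, 237.7 to 241.1 CPM in sgControl stood beside 245.3 to 248.5 in sgCdk10. Klf10 (ENSMUSG00000037465, chromosome 15, from 38291463 to 38300706, minus strand, 10 merged exons), known as a gene induced early by TGF-beta, had 39.5, 38.2 and 39.9 CPM in sgControl and 53.3, 51.6 and 51.8 in sgCdk10. The libraries of each group lay close together, and the groups were far apart. The means were 39.2 ± 0.894 and 52.3 ± 0.916 CPM (SD, n = 3). Their ratio was 1.33, with 0.41 (SE 0.05) as the log2 fold change. Klf11 (ENSMUSG00000020653, chromosome 12, from 24651274 to 24662789, plus strand, 6 merged exons), a second gene known as induced by TGF-beta, had 11.7, 12.1 and 11.5 CPM in sgControl and 7.95, 8.31 and 9.20 in sgCdk10. The log2 fold change of -0.47 (SE 0.09), a ratio of 0.723, was the lowest of the 10 members, and the groups did not overlap. These 2 close relatives thus had differences of opposite sign, as did Klf9 and Klf13.

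Klf9 (ENSMUSG00000033863, chromosome 19, from 23141226 to 23168134, plus strand), known as a target of glucocorticoid and thyroid hormone receptors, had 84.1, 86.0 and 88.1 CPM in sgControl and 76.0, 80.1 and 79.5 in sgCdk10. The highest sgCdk10 library lay below the lowest sgControl library, at a log2 fold change of -0.13 (SE 0.04). Klf13 (ENSMUSG00000052040, chromosome 7, from 63886351 to 63938915, minus strand), a repressor also known from T cell chemokine expression, had 74.5, 74.6 and 72.1 CPM in sgControl and 79.6, 79.0 and 78.8 in sgCdk10. The groups did not overlap, and the log2 fold change was 0.10 (SE 0.04). Corrected for GC content and length it was 0.01, so the difference of Klf13 depended on that setting.

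**Figure D1:**
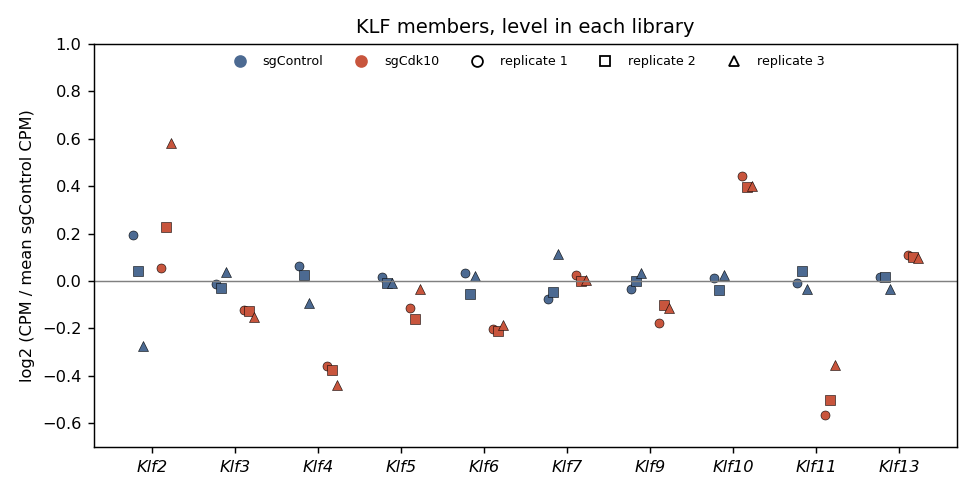
Level of each of the 10 KLF members in each library, as log2 of its CPM over the mean CPM of sgControl (vertical axis), with 1 point per library, colour for the group and shape for the replicate. Klf3, Klf4, Klf5, Klf6, Klf9 and Klf11 lie below 0 in all 3 sgCdk10 libraries, apart from sgControl. Klf10 and Klf13 lie above 0 and apart from sgControl, while the groups overlap for Klf2 and Klf7.

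Of the 10 members, 5 were called lower by edgeR (Klf3, Klf4, Klf6, Klf9 and Klf11), 2 higher (Klf10 and Klf13) and 3 not called (Klf2, Klf5 and Klf7). The shares over all genes tested were 42.5% called, 20.4% lower and 22.1% higher, and since the members were chosen on this contrast nothing is read from the count. In 8 of the 10 members (all but Klf2 and Klf7) the ranges of the groups did not overlap, and the same held for 51.3% of the genes tested. The median log2 fold change of the members was -0.12, and that of all genes tested -0.0031. Klf13 was not called in 7 of 14 alternatives, which were other settings of the analysis or 1 library left out. Without sgCdk10 replicate 1 Klf9 was not called, and Klf5 was called lower without sgControl replicate 3 or sgCdk10 replicate 3.

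Levels of different genes were compared per length, as CPM per kb of merged exons. In sgControl Klf4 had 38.3 ± 2.17 and Klf6 28.9 ± 0.928 CPM per kb (SD, n = 3), followed by Klf9 at 17.9, Klf3 at 14.5, Klf5 at 11.9, Klf7 and Klf13 at 9.79 each, Klf10 at 9.39, Klf11 at 2.71 and Klf2 at 1.84. Only Klf7 and Klf13 overlapped among neighbours in that order. In sgCdk10 the order began with the same 4 genes, Klf4 at 29.2 ± 0.824, Klf6 at 25.2 ± 0.214, Klf9 at 16.3 and Klf3 at 13.2 CPM per kb. By merged exons Klf10 moved from rank 8 to rank 5, at 12.5 ± 0.219. By longest transcript Klf10 was at rank 6 in both groups, so its move depended on the length used. At the lower end Klf2 passed Klf11, with overlapping libraries (2.28 ± 0.434 and 1.96 ± 0.147). The level of Klf3 depended on the length used. Its merged exons spanned 11243 bases and its longest transcript 5221, and by the longest transcript it stood at rank 2 in both groups, with 31.3 and 28.5 CPM per kb.

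**Figure D2:**
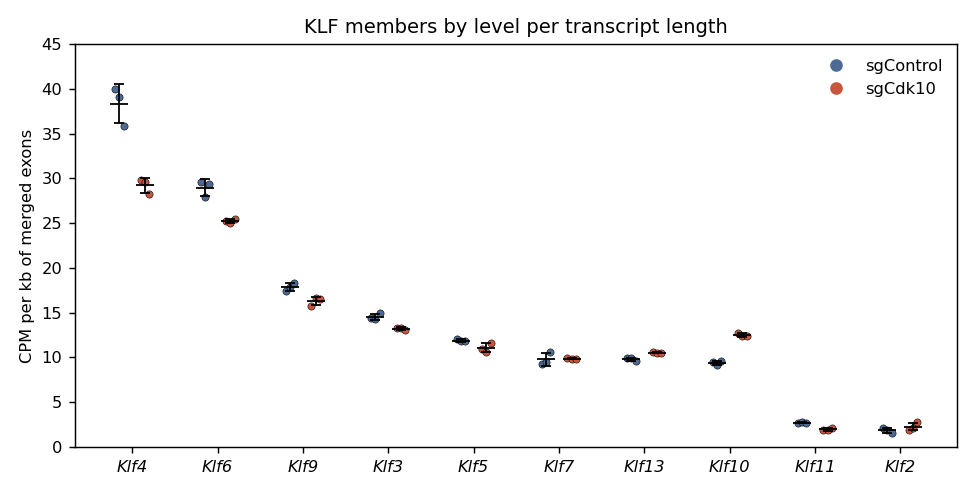
CPM per kb of merged exons (vertical axis, from 0) of the 10 members in order of their sgControl level, with 1 point per library and bars for the mean and SD of 3 libraries. Klf4 and Klf6 stand above the rest in both groups, and Klf11 and Klf2 below 3 CPM per kb.

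Summed over the 10 members, the level was 147, 144.0 and 144 CPM per kb in the sgControl libraries and 132, 132 and 132 in the sgCdk10 libraries. The means were 145 ± 1.64 and 132 ± 0.292 CPM per kb (SD, n = 3), a difference of -12.9. The difference was -9.08 CPM per kb for Klf4, -3.73 for Klf6 and 3.12 for Klf10. The share of Klf4 in the sum was 26.4 ± 1.32% in sgControl and 22.1 ± 0.660% in sgCdk10. The share of Klf10 was 6.47 ± 0.144% and 9.46 ± 0.165%. Klf6 held 20.0 and 19.1%, and Klf9 12.3% in sgControl and 12.3 ± 0.355% in sgCdk10. Of the 10 shares, those of Klf4 and Klf10 lay furthest apart between the groups.

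Of the other 7 KLF genes 6 had at most 4 counts in any library. Klf16, a SIN3A-binding repressor, was the only one tested, at 28.1 ± 2.79 CPM in the control cells and 28.9 ± 0.469 in the sgCdk10 cells (SD, n = 3), with an adjusted p = 0.630 by edgeR at a log2 fold change of 0.04. Its sign was negative with the GC and length correction (-0.04) and without sgControl replicate 3 (-0.01). Klf8 and Klf17 were at 0 in every library, and Klf1 (the erythroid factor), Klf12, Klf14 and Klf15 made up the rest.

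The SP factors bind the same GC boxes, and their 2 main members did not pass the test. Sp1 had 250 ± 11.5 CPM in the control cells and 247 ± 3.44 in the sgCdk10 cells (SD, n = 3, adjusted p = 0.705 by edgeR). Its log2 fold change of -0.02 was 0.01 without sgControl replicate 3, and -0.07, past the threshold, when GC content and length were corrected for. Sp3 had 151 ± 1.72 and 155 ± 4.06 CPM (adjusted p = 0.307 by edgeR). Sp2 fell from 39.0, 40.7 and 40.4 CPM to 33.1, 30.3 and 30.3, by 0.36 on the log2 scale (SE 0.05, with an adjusted p = 5.1e-06 by edgeR). Sp4 rose from 6.95, 7.80 and 7.67 to 10.7, 11.4 and 8.83 CPM, by 0.46 (SE 0.10, adjusted p = 9.3e-04 by edgeR). So 1 of 4 tested SP genes rose and 1 fell, beside 22.1% higher and 20.4% lower over all genes tested. Sp5, Sp6 and Sp8 were at 0, and Sp7 and Sp9 had at most 1 count.

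The immediate early genes outside the family, with which Klf4 and Klf6 were contrasted when the family was picked, are also given as a description. Of 23 listed, 22 were tested, 18 were called higher and 0 lower, with a median log2 fold change of 0.67, where 22.1% of all genes tested were called higher. The 4 with the smallest p were Egr1 at 2.21 (SE 0.05), Jun at 1.15 (SE 0.05), Ccn1 at 0.79 (SE 0.03) and Fosb at 2.00 (SE 0.09). Those not called were Ier5, Nr4a1, Btg2 and Myc, which are named after their values were seen, with log2 fold changes of -0.09, 0.08, 0.33 and 0.05. Atf3 was at 0 in every library. Within the KLF family, Klf10 at 0.41 was of the size of Ccn2 at 0.49 and Ier2 at 0.34, which are also named after their values were seen. Srf, named likewise, the factor that binds CArG boxes, had a log2 fold change of 0.55 (SE 0.05).

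**Figure D3:**
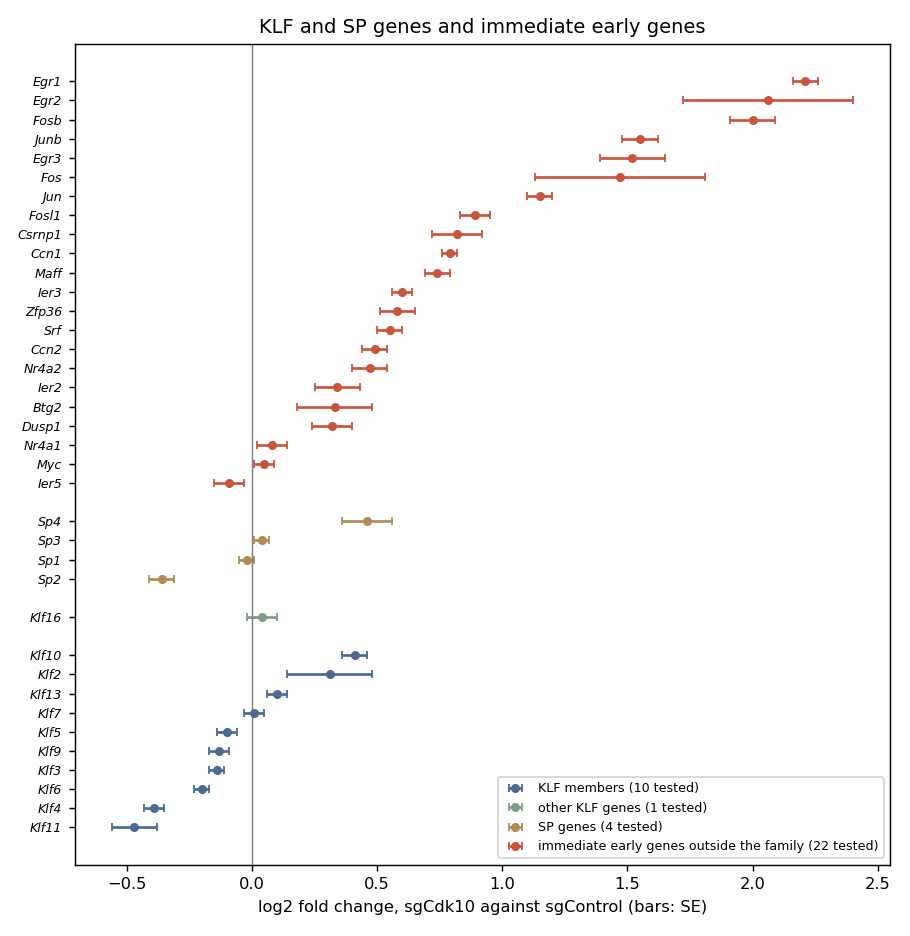
Log2 fold change of sgCdk10 against sgControl (horizontal axis, bars are SE from the edgeR fit) for the tested KLF, SP and immediate early genes, sorted within each group of genes. The KLF members span -0.47 to 0.41, and most immediate early genes lie to the right of them, up to 2.21 for Egr1.

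Genes whose proteins work with KLF factors moved in both directions. Of 14 cofactors and ubiquitin ligases, all tested, 7 rose and 2 fell, with a median log2 fold change of 0.11, against 42.5% called and a median of -0.0031 over all genes tested. Sin3b, a scaffold of the SIN3 corepressor, rose from 58.5, 62.0 and 58.1 CPM to 70.4, 67.6 and 69.3, by 0.22 (SE 0.04, adjusted p = 1.7e-04 by edgeR). Fhl3, a LIM protein known as a partner of KLF3, rose by 0.23 (SE 0.04, adjusted p = 1.7e-04 by edgeR). Kat2b, an acetyltransferase, rose by 0.23 (SE 0.05, adjusted p = 3.3e-04 by edgeR) and Hdac2, a deacetylase of the SIN3 complex, by 0.15 (SE 0.03, adjusted p = 6.4e-04 by edgeR). Both that fell were picked out once their values were known. They were Ctbp1, the partner of KLF3, by 0.11 (SE 0.03, adjusted p = 0.00315 by edgeR), and Sin3a by 0.10 (SE 0.03, adjusted p = 0.0162 by edgeR). Sin3a was not called by DESeq2 or without sgCdk10 replicate 1 or 3.

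The kinase route through MEKK3, ERK5 and MEF2 factors is a known inducer of Klf2 and Klf4, above all in endothelium. Of 12 genes 10 were tested, 2 rose and 0 fell, with a median log2 fold change of 0.04. That is 20.0% called, beside 42.5% of all genes tested. Mef2d, a MEF2 factor, rose from 109 ± 1.18 to 124 ± 1.54 CPM (SD, n = 3), by 0.19 (SE 0.03, adjusted p = 4.5e-05 by edgeR). Map3k2, the kinase MEKK2, rose by 0.18 (SE 0.04, adjusted p = 8.4e-04 by edgeR). Heg1, a receptor of the CCM complex, had a log2 fold change of 0.43 (SE 0.18, adjusted p = 0.0560 by edgeR), and Map3k3, the kinase MEKK3, of -0.09 (SE 0.04, adjusted p = 0.0563 by edgeR). With GC content and length corrected for, Mef2d was at 0.11 and Map3k2 at 0.09, both still called. Map3k3 was called lower in 4 of 14 alternatives, one of them without sgControl replicate 2, and Heg1 higher in 2, one of them without sgCdk10 replicate 3. With a stricter filter of 1 CPM both were called, so that 3 rose and 1 fell.

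Klf9 is known to be induced by nuclear receptors, and Klf10 and Klf11 by TGF-beta through SMAD proteins. Of 13 genes of these routes 11 were tested, 6 rose and 3 fell, with a median log2 fold change of 0.13, beside 42.5% called over all genes. Tgfb3, a TGF-beta ligand, rose from 12.6, 11.8 and 11.0 CPM to 23.4, 23.7 and 24.3, by 1.01 (SE 0.07, adjusted p = 2.1e-11 by edgeR). The 2 groups were far apart, and each sgCdk10 library held about the same level. Smad3, a signal transducer, rose from 64.1 ± 0.784 to 91.6 ± 1.48 CPM (SD, n = 3), with an adjusted p = 4.4e-11 by edgeR, and Smad7, the inhibitory SMAD, from 21.4 ± 0.612 to 30.0 ± 0.969 (SD, n = 3, adjusted p = 1.9e-07 by edgeR). Thra, a thyroid hormone receptor, rose by 0.37 (SE 0.06, adjusted p = 2.1e-05 by edgeR). Again picked out with values known, the 3 that fell were Thrb, the other thyroid hormone receptor, by 0.22 (SE 0.06), Nr3c1, the glucocorticoid receptor, by 0.13 (SE 0.04) and Smad2 by 0.14 (SE 0.04), with edgeR p-values after adjustment of 0.00207, 0.00317 and 0.00364. Klf10 and Klf11, both known as TGF-beta genes, differed in opposite directions, and a link to these rises and falls was not tested.

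Of 25 genes known as KLF targets 16 were tested, 10 rose and 3 fell, with a median log2 fold change of 0.31, beside 42.5% called over all genes. The list holds genes that KLF factors activate and genes that they repress, so its direction has no single reading. Cdkn1a, the cell cycle inhibitor p21 that KLF4 and KLF6 are known to activate, rose from 139, 141 and 127 CPM to 194, 193 and 198, by 0.52 (SE 0.04, adjusted p = 3.4e-11 by edgeR). Ccnd1, a cyclin that KLF4 is known to repress and KLF5 to activate, rose from 571 ± 5.94 to 723 ± 5.64 CPM (SD, n = 3), by 0.34 (SE 0.03, adjusted p = 8.5e-11 by edgeR). Lgals3, galectin-3, known to be repressed by KLF3, fell from 539 ± 4.41 to 460 ± 8.28 CPM (SD, n = 3), by 0.23 (SE 0.03, adjusted p = 1.3e-07 by edgeR). Smad7, a gene that KLF10 and KLF11 are known to repress, is the same gene as in the SMAD route above. Tgfb1, called higher at 0.38, and Tgfbr1, not called, are named here because they also stand in both lists. The counts of these lists thus share genes. Ccnb1 and Birc5, picked out with values known, were the other 2 that fell, Ccnb1 by 0.15 (SE 0.03, adjusted p = 4.2e-04 by edgeR) and Birc5 by 0.08 (SE 0.03, adjusted p = 0.0421 by edgeR). Birc5 was not called in 7 of 14 alternatives, among them DESeq2 and the replicate block. The epithelial targets Cdh1, Alpi and Krt19 had at most 4 counts, and Thbd, a target of KLF2, was at 0.

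**Figure D4:**
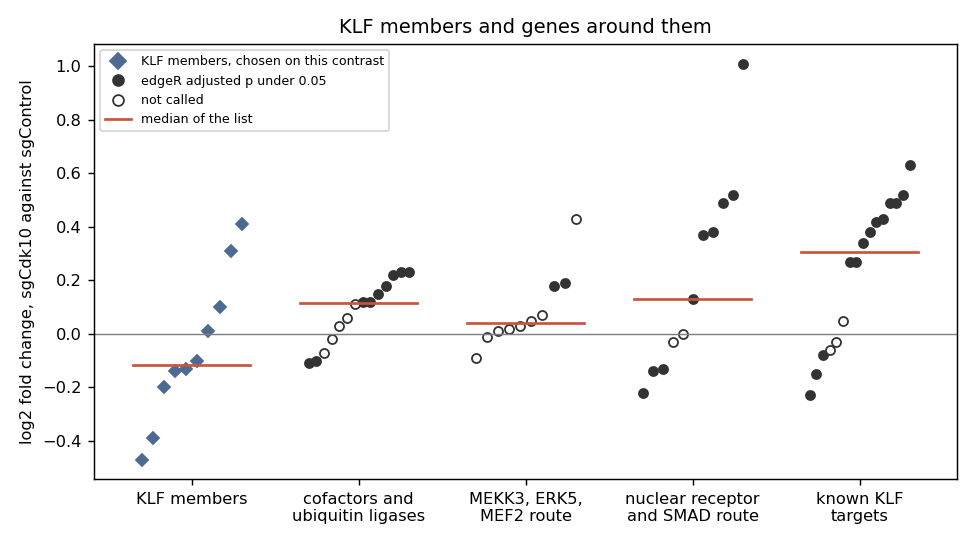
Log2 fold change of sgCdk10 against sgControl (vertical axis) of each tested gene in 5 lists (horizontal axis), with filled circles for genes past the edgeR threshold, open circles for the rest, diamonds for the KLF members and a line at each list's median. The medians run from -0.12 for the KLF members to 0.31 for the known KLF targets.

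The genes whose levels followed Klf4 and Klf6 most closely were found by the Euclidean distance between log2 CPM profiles over the 6 libraries, each centred on its own mean, among 11211 tested genes with a symbol. Nearest to Klf4 were Slc35b2, a Golgi nucleotide sulfate transporter, at 0.0408, Vps11, a subunit of vesicle tethering complexes, at 0.0430, and Itgb7, an integrin chain, at 0.0464. Slc35b2 went from 57.5 ± 2.57 to 43.4 ± 0.991 CPM, Vps11 from 92.7 ± 3.82 to 70.9 ± 1.35 and Itgb7 from 153 ± 9.02 to 117 ± 2.46 (SD, n = 3). Like Klf4, each had its lowest sgControl level in replicate 3. Nearest to Klf6 were Trip13, an ATPase of the mitotic checkpoint, at 0.0220, Dnaja3, a mitochondrial chaperone, at 0.0376, and Rtca, an RNA cyclase, at 0.0420. Trip13 went from 68.2 ± 2.28 to 58.8 ± 0.788 CPM, with sgControl replicate 2 the lowest of its group as for Klf6. These genes were picked for their likeness, so the values are a description.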

How the data were processed

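RNA was sequenced from 6 libraries of CT26 cells, 3 sgControl and 3 sgCdk10, with groups and replicate numbers from the titles. The authors deposited 1 table of raw counts per gene, with no normalization. Tools listed in the submitters' processing notes are featureCounts 2.0.3, HISAT2 2.2.1 and DESeq2 1.40.2, with mm10 as the build. Neither strand setting nor annotation release is given in the sources used here, so reads of overlapping genes cannot be told apart. Of 57010 identifiers 52081 had a symbol in GENCODE M21 (GRCm38), and the rest held at most 0.236% of a library's counts.

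Genes were kept by filterByExpr (minimum count 10, minimum total 15), which left 13442. Group was the only term of a quasi-likelihood fit in edgeR 4.0.16, with TMM factors and robust dispersions. Adjusted p-values are Benjamini-Hochberg values over all genes tested, and a gene under 0.05 was called. Log2 fold changes above 0 mean higher in sgCdk10, and their SE was derived from the F statistic. CPM are counts scaled by the TMM-adjusted library total, and 3 counts, which cover counting error only, are the floor of detection. Profiles used log2 CPM with a prior count of 2. Promoters were matched by symbol for 8 of 10 members, and motifs were searched in 250 bases. Of the steps, only the fits by edgeR, DESeq2 and limma-voom were tested on simulated counts. Those counts held far fewer changed genes than were called here and no library that stood apart, so they do not cover that setting.

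The members, lists and tests were chosen with earlier results of these data known. The naming rule took the 10 members, Cdk10, every tested KLF and SP gene, the 4 smallest p of each other list and 3 nearest profiles each for Klf4 and Klf6. Alternatives were DESeq2-type size factors, DESeq2 1.42.0, limma-voom (limma 3.58.1), no filter, a filter of 1 CPM, non-robust dispersions, the replicate block, a GC and length correction (loess, span 0.5) and leaving out each library.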

Additional observations from a re-analysis of the deposited data

How the results depend on the processing

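The 14 alternatives gave 4179 (DESeq2) to 6056 (without sgControl replicate 3) changed genes, against 5717. The members kept their sign in all of them except Klf7, which crossed 0, and 5 to 7 of 10 were called. Klf4 ran from -0.44 to -0.36, Klf6 from -0.22 to -0.18, Klf10 from 0.40 to 0.43 and Klf11 from -0.53 to -0.42. Klf13 moved from 0.10 to 0.01 with the GC and length correction; the cause was not tested. The MEKK3, ERK5 and MEF2 list had 2 calls, 4 with the stricter filter, and 3 with DESeq2-type size factors, with the GC and length correction, and without sgControl replicate 2 or sgCdk10 replicate 3. The share of Klf4 in the summed level of the 10 members was 26.4% in sgControl. It was 21.8% by longest transcript, where Klf3 and most other members have a shorter length, and 26.0 to 27.2% with a library left out. Signs turned for Klf16 (-0.04 with the GC and length correction, -0.01 without sgControl replicate 3, range -0.01 to 0.13 with 1 library left out), Sp1 (0.01 without sgControl replicate 3, range -0.05 to 0.01) and Vwf, an endothelial marker (-0.18, and 0.11 without sgControl replicate 1, range -0.32 to 0.11). Of these, Sp1 was called with the GC and length correction, at -0.07. The replicate block gave 5481 changed genes, left 7 members called (2 higher, 5 lower) and gave a Cdk10 log2 fold change of -0.82. For libraries with the same number, deviations from their group's mean correlated at 0.03, -0.06 and -0.10, so the numbers were not taken as pairs. The low counts of Klf2 limit what can be said of it.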
